A study of Mus musculus with 4 samples.

Results

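The miR-34 and miR-449 family was read across the 4 small RNA libraries of this study. Its members were taken by name, as every listed arm of miR-34a, miR-34b, miR-34c, miR-449a, miR-449b and miR-449c, with a name that is not listed in a library counted as 0 reads. This gave 6 arms of 816 mouse miRNAs, both arms of miR-34a, miR-34b and miR-34c, and no arm of miR-449. The libraries were made from total RNA of FACS-sorted prostate cells of male C57Bl/6 mice, wild type and 10 weeks old. Basal cells (2 libraries) were gated as Sca-1 positive, lineage negative and high in CD49f, an integrin of cells that sit on the basement membrane. Luminal cells (2 libraries) were gated as low in CD49f within the same fraction. The study set basal against luminal cells to find miRNAs that mark a compartment. The labels do not say whether the libraries of a group came from separate mice, so a p-value measures the spread between these libraries, which may be technical.

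miR-34a, miR-34b and miR-34c are known as transcriptional targets of the tumour suppressor p53, and they repress cell cycle and survival genes such as Cdk4, Cdk6, Ccnd1, Met and Bcl2. miR-34b and miR-34c are cut from 1 primary transcript, while miR-34a has a gene of its own. The miR-449 arms share the miR-34 seed and, with miR-34b and miR-34c, are best known from multiciliated cells and the male germ line. A miRNA finds its targets chiefly through its seed, bases 2 to 8 from the 5′ end, so arms with the same seed are read as 1 family.

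The mature sequences are shown because they divide the family by seed. RefSeq (GRCm38.p6) held 5 of the 6 listed arms and 4 miR-449 arms. The missing arm is miR-34c-5p, so its likeness to the other 5p arms is not shown. The miR-449a-3p and miR-449c-3p sequences have other seeds and are left out. The seed is in capitals and all sequences run 5′ to 3′. The first 4 are 5p arms with the seed GGCAGUG, and the last 3 are 3p arms of the miR-34 genes.
miR-34a-5p: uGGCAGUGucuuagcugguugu
miR-34b-5p: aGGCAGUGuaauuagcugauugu
miR-449a-5p: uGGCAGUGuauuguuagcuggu
miR-449c-5p: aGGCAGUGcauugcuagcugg
miR-34a-3p: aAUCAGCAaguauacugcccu
miR-34b-3p: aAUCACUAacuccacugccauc
miR-34c-3p: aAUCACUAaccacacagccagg
No other mature sequence among the 1679 in the table had the seed GGCAGUG or AUCACUA. The miR-34b-3p and miR-34c-3p sequences differ at 5 of 22 positions when set base against base from the 5′ end, and miR-34a-5p and miR-34b-5p at 11 of 22. miR-34a-5p and miR-449a-5p differ at 7 of 22 positions.

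The precursor of miR-34a lies on the plus strand of chromosome 4 (GRCm38, chr4:150068454-150068555), and its last 17 bases overlap an exon of the unclassified transcript Gm37795 on the same strand. The precursors of miR-34c (chr9:51103034-51103110) and miR-34b (chr9:51103562-51103645) lie on the minus strand of chromosome 9 with 451 bases between them, opposite an intron of Btg4. Those of miR-449c (chr13:113035983-113036091) and miR-449a (chr13:113037534-113037624) lie on the plus strand of chromosome 13 in an intron of Cdc20b. The hairpins of miR-34a and miR-34b are given with both mature arms in capitals, since the use of the arms is compared below.
Mir34a: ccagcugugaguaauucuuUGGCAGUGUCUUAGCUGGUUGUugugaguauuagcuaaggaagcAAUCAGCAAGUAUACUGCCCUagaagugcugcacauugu
Mir34b: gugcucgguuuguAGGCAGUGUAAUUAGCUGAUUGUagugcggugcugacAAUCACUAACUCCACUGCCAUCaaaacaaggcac

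miRNA reads numbered 1855718 (replicate 1) and 3278294 (replicate 2) in basal libraries and 1583830 (replicate 1) and 1501898 (replicate 2) in luminal libraries. Levels are given as RPM, which are reads per 1000000 miRNA reads after TMM scaling (trimmed mean of M values). The TMM factors were 1.44 and 1.02 in basal and 0.826 and 0.819 in luminal replicates 1 and 2. A single miRNA, miR-200c-3p, took 22.3% and 46.9% of the miRNA reads in basal and 68.5% and 71.6% in luminal libraries. Levels without TMM scaling depend on this share. The basal marker miR-205-5p stood at 51956 and 80905 RPM in the basal libraries and at 6686 and 4605 RPM in the luminal libraries. The luminal markers miR-148a-3p and miR-375-3p together had 3100 and 4142 RPM in basal and 26338 and 23201 RPM in luminal libraries. Markers of other cell types were present in every library. The 2 endothelial arms of miR-126a summed to 55057 and 34556 RPM in basal and 10579 and 966 RPM in luminal libraries. For smooth muscle, miR-145a-5p and miR-143-3p summed to 1054 and 1970 RPM in basal and 9473 and 12374 RPM in luminal libraries. The 4 leukocyte arms (of miR-142, miR-223 and miR-150) summed to 3481 and 6461 RPM in basal and 2955 and 1909 RPM in luminal libraries. Most of this sum was miR-150-5p, at a mean of 4861 RPM for basal and 2005 RPM for luminal libraries (log2 fold change, basal over luminal, 1.28). The other 3 arms went the other way, at -1.74 (miR-142-3p), -1.69 (miR-142-5p) and -2.35 (miR-223-3p). The erythroid pair miR-451a and miR-144-3p summed to 170 and 3019 RPM in basal and 206 and 646 RPM in luminal libraries, with miR-486a-5p at 0. The epithelial miR-200b-3p and miR-141-3p summed to 23526 and 16127 RPM in basal and 25273 and 33716 RPM in luminal libraries. Lineage negative cells should lack endothelial cells where the lineage antibodies include an endothelial one, which the labels do not state.

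The family was a minor part of each library. Its 6 arms took 712 and 591 reads in basal replicates 1 and 2, against 92 and 296 reads in luminal replicates 1 and 2. As levels these sums were 266 and 176 RPM in basal libraries and 70.4 and 241 RPM in luminal libraries, so the groups overlapped. The mean ± SD was 221 ± 63.6 RPM for basal and 155 ± 120 RPM for luminal libraries (n = 2 each), a log2 ratio of 0.51 that is smaller than the spread between replicates (SD of 0.94 on the log2 scale). The group means of the 2 loci behind this sum ran in opposite directions. The arms of the miR-34b and miR-34c cluster together had 251 and 128 RPM in basal libraries and 29.1 and 34.9 RPM in luminal libraries, while the arms of miR-34a had 14.6 and 47.6 RPM in basal libraries and 41.3 and 206 RPM in luminal libraries. The cluster was higher in both basal libraries, as was so for 27.2% of all tested miRNAs. Its log2 ratio of the means was 2.57, and its replicate SD was 0.50 on the log2 scale. The cluster sum joins unlike arms: miR-34c-5p gave 568 of its 673 reads in basal replicate 1, but 2 of 43 in luminal replicate 2. The log2 ratio of miR-34a was -1.99 with a replicate SD of 1.44, and its groups overlapped, with basal replicate 2 above luminal replicate 1. Without luminal replicate 2 the ratio was 1.71 for the family sum, 2.77 for the cluster and -0.38 for miR-34a, and without luminal replicate 1 it was -0.053, 2.52 and -2.69. Without basal replicate 1 the cluster stood at 1.98, and without basal replicate 2 miR-34a stood at -3.07. These are libraries of many cells, in which fewer cells of a type and less RNA per cell cannot be told apart.

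**Figure D1:**
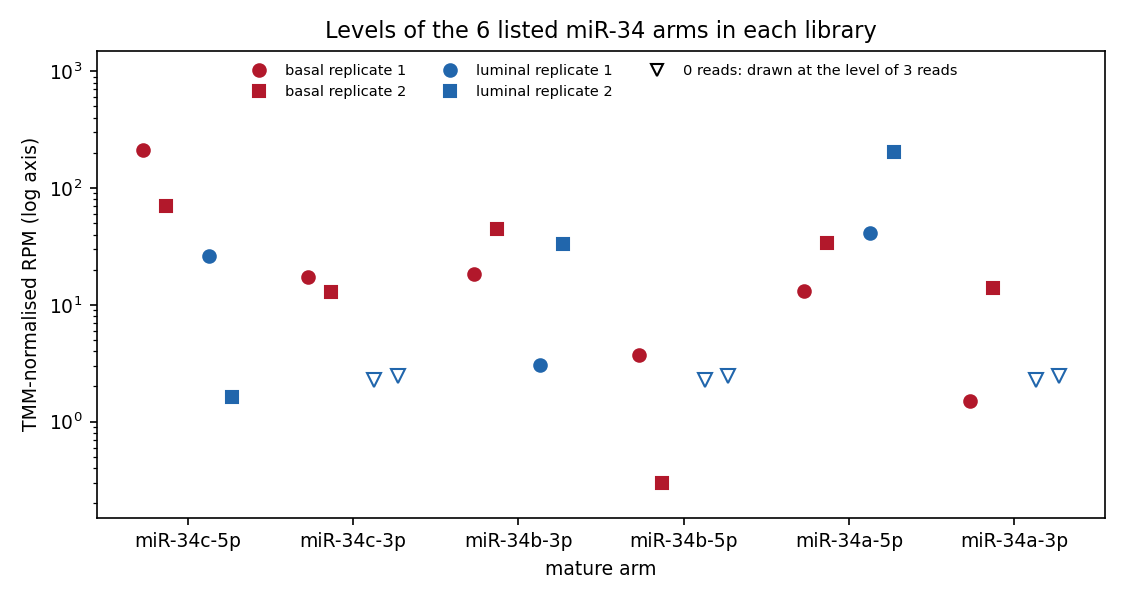
Level of each listed miR-34 arm in each library, in TMM-normalised RPM on a log axis, with filled points for libraries with reads and open triangles for 0 reads, drawn at the level of 3 reads in that library. miR-34c-5p reaches 212 RPM in basal replicate 1 and 1.63 RPM in luminal replicate 2, whereas miR-34a-5p is highest in luminal replicate 2, at 206 RPM.

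Of the 6 arms, 4 had enough reads to be tested. None of the 4 passed at an adjusted p under 0.05 (edgeR quasi-likelihood test, 2-sided, Benjamini-Hochberg over 345 miRNAs), where 4.35% of all tested miRNAs passed. At an unadjusted p under 0.05 there were 3 arms of 4, where 15.9% of all tested miRNAs passed, but one of these arms, miR-34c-3p, entered the test only through its basal reads and had to differ. DESeq2 called 1 arm, miR-34c-5p, where it called 8.12% of all tested miRNAs. For a single value, the smallest p that an exact permutation test of 2 against 2 libraries allows is 0.333.

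miR-34c-5p, the arm with the most family reads in both basal libraries but not in the luminal ones, had 568 and 238 reads in basal replicates 1 and 2, against 34 and 2 reads in luminal replicates 1 and 2. The lowest basal level was above the highest luminal level, as was so for 27.2% of all tested miRNAs. It ranked 98 and 146 by reads in the basal libraries and 226 and 351 in the luminal libraries. Its level (mean ± SD, n = 2 each) was 142 ± 99.9 RPM for basal and 13.8 ± 17.2 RPM for luminal libraries. Basal over luminal, this is a log2 fold change of 3.35 (standard error 1.14) that missed the threshold (edgeR, adjusted p = 0.123). Only 9 of the 345 tested miRNAs had a larger log2 fold change. The luminal libraries stood 10.3-fold apart on the RPM + 1 scale, a wider gap than in all but 29 of the tested miRNAs, and the basal libraries 2.97-fold. The arm passed in DESeq2 (adjusted p = 0.0259) and with no filter on low counts (edgeR, adjusted p = 0.0227). Of all tested miRNAs, 8.12% and 2.57% passed under these settings. The log2 fold change was 6.48 without luminal replicate 1, 2.51 without luminal replicate 2 and 2.36 without basal replicate 1.

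Its partner arm miR-34c-3p, cut from the other side of the same hairpin, had 46 and 43 reads in basal replicates 1 and 2 and no read in either luminal library. It was the only 1 of the 345 tested miRNAs with 0 reads in both luminal libraries, and it passed the filter through its basal reads alone, so it had to differ. Among all listed miRNAs, 167 had 0 reads in both luminal libraries. The basal level was 15.0 ± 3.10 RPM (SD, n = 2), at least 6.34-fold higher than in luminal libraries when each of these is set to 3 reads. It missed the threshold (edgeR, adjusted p = 0.174). It passed with scaling to the Cali reads, which are listed under names that are not mouse miRNAs (adjusted p = 0.0451), but that scaling moved the median of all tested miRNAs to 1.99, and nothing is read from a p-value of an arm that had to differ. It could not be fitted at a minimum mean of 10 RPM.

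miR-34b-3p, from the same transcript as miR-34c, did not follow it in every library. It had 49 and 149 reads in basal replicates 1 and 2, against 4 and 41 reads in luminal replicates 1 and 2. The levels were 18.3 and 44.4 RPM in basal and 3.06 and 33.3 RPM in luminal libraries, so luminal replicate 2 lay between the basal libraries. On the log2 scale the fold change came to 0.79 (standard error 1.26, edgeR adjusted p = 0.800). It was -0.046 without luminal replicate 1 and 3.37 without luminal replicate 2, so its direction rests on which luminal library is kept. Without basal replicate 2 it was 0.02. The other arm, miR-34b-5p, had 10 and 1 reads in basal replicates 1 and 2 and none in luminal libraries, which was too few to test.

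miR-34a-5p, the arm best known as a p53 target, leaned the other way. It had 35 and 113 reads in basal replicates 1 and 2, against 54 and 253 reads in luminal replicates 1 and 2. The levels were 13.1 and 33.6 RPM in basal and 41.3 and 206 RPM in luminal libraries. The highest basal level was below the lowest luminal level, as was so for 24.3% of all tested miRNAs. Without TMM scaling the groups overlapped, at 18.9 and 34.5 reads per 1000000 in basal and 34.1 and 168 in luminal libraries. On the log2 scale the fold change came to -2.40 (standard error 1.0) and missed the threshold (edgeR, adjusted p = 0.218). The fold change was -3.09 without luminal replicate 1 and -0.78 without luminal replicate 2. miR-34a-3p had 4 and 47 reads in basal replicates 1 and 2 and none in luminal libraries. It was not tested. Its levels in basal replicates 1 and 2 were 1.49 and 14.0 RPM, and 3 reads would stand at 2.29 and 2.44 RPM in luminal replicates 1 and 2, so only basal replicate 2 lay above what the luminal counts allow.

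**Figure D2:**
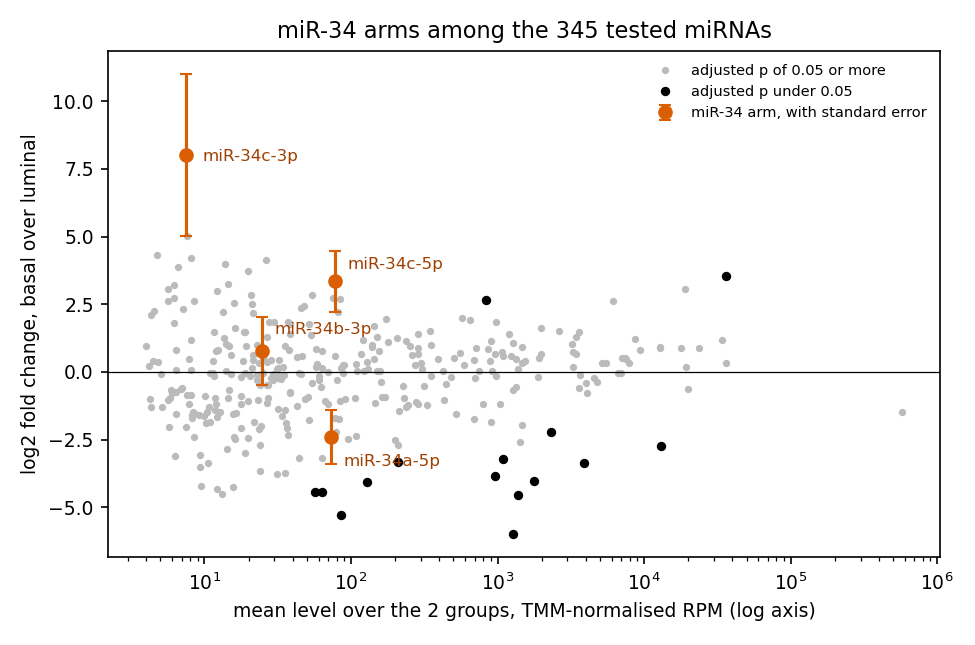
Log2 fold change, basal over luminal, of the 345 tested miRNAs against their mean level on a log axis, with the 4 tested miR-34 arms in orange and bars for their standard errors. miR-34c-5p (3.35) and miR-34a-5p (-2.40) lie on opposite sides of 0 at like mean levels, and no miR-34 arm is among the 15 miRNAs that passed.

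Ratios between arms of 1 library do not depend on the scaling between libraries. miR-34c-5p had 16.2 and 2.11 reads per read of miR-34a-5p in basal replicates 1 and 2, against 0.630 and 0.00791 in luminal replicates 1 and 2. The ratio was above 1 in both basal and below 1 in both luminal libraries. The log2 ratio averaged 2.55 ± 2.08 for basal and -3.83 ± 4.47 for luminal libraries (SD, n = 2 each), a difference of 6.37 with the smallest p that the design allows (exact permutation test, 2-sided, p = 0.333). The ratio of miR-34b-3p to miR-34a-5p was closer between replicates, at 1.40 and 1.32 in basal and 0.0741 and 0.162 in luminal libraries. Its log2 difference was 3.63, with replicate SDs of 0.061 in basal and 0.80 in luminal libraries (exact permutation test, 2-sided, p = 0.333). Within the cluster, miR-34c-5p had 11.6 and 1.60 reads per read of miR-34b-3p in basal libraries and 8.50 and 0.0488 in luminal libraries. This ratio overlapped between the groups (exact permutation test, 2-sided, p = 0.667). The 2 reads of miR-34c-5p in luminal replicate 2 set its lowest values, so these are known only roughly.

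As shares of the 5p reads of the miR-34 genes, miR-34c-5p took 92.7% (95% interval 90.3 to 94.6) and 67.6% (62.5 to 72.5) in basal replicates 1 and 2, against 38.6% (28.4 to 49.6) and 0.784% (0.0951 to 2.80) in luminal replicates 1 and 2. miR-34a-5p took 5.71% (4.01 to 7.85) and 32.1% (27.3 to 37.3) in basal libraries, and 61.4% (50.4 to 71.6) and 99.2% (97.2 to 99.9) in luminal libraries. Most 5p reads thus came from miR-34c in the basal libraries and from miR-34a in the luminal libraries. The intervals are exact Clopper-Pearson intervals and cover counting error only, since PCR reads are not independent molecules.

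**Figure D3:**
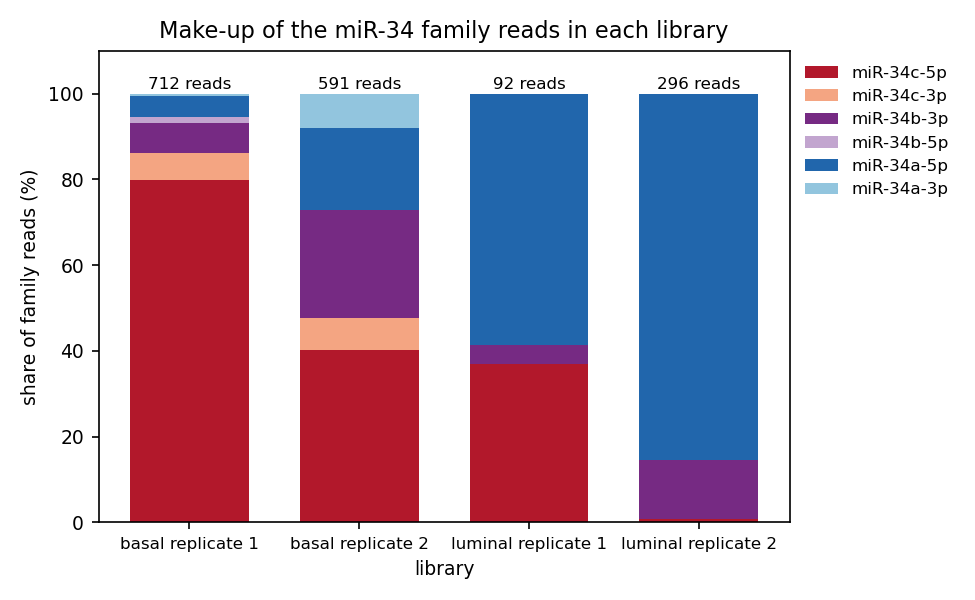
Share of the family reads taken by each arm in each library, in percent, with the family's read total above each bar. The miR-34b and miR-34c arms make up 94.5% and 72.9% of the basal bars and 41.3% and 14.5% of the luminal bars.

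The arms were used in different proportions by the 3 precursors. In miR-34c the 5p arm took 92.5% and 84.7% of the reads of basal replicates 1 and 2. In miR-34b the order was the reverse, with the 3p arm at 83.1% and 99.3%. In miR-34a the 3p arm took 10.3% and 29.4% of the reads of basal replicates 1 and 2. It took 0 of 54 and 0 of 253 reads of luminal replicates 1 and 2, which allows shares of up to 5.56% and 1.19%. As point values both basal shares lay above these limits, which cover counting error only, and the basal libraries differed between themselves. The share of basal replicate 1 rests on 4 of 39 reads. Its exact interval for the 5p share, 75.8 to 97.1%, overlapped the 93.4 to 100% of luminal replicate 1. It did not reach the 98.6 to 100% of luminal replicate 2. Only basal replicate 2, at 62.9 to 77.6%, lay apart from both luminal libraries. For miR-34c the luminal libraries had 34 and 2 reads, and 0 of 34 allows a 3p share of up to 8.82%, which does not exclude the 7.49% of basal replicate 1. Similar arms can share reads, and the sources used here do not say how a read with several matches was assigned.

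No arm of miR-449a, miR-449b or miR-449c was listed in any library. The listed reads add up to the total written under each list, with a difference of 0 reads in all 4 libraries. Under the counting of an unlisted name as 0 reads, 3 reads set the level that could have been missed, which is 1.12 and 0.893 RPM in basal and 2.29 and 2.44 RPM in luminal libraries. miR-449 was thus not detectable at this depth, which does not show that it is absent.

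The tested miRNAs whose profile over the 4 libraries came closest to that of miR-34c-5p were miR-126a-3p, miR-1247-5p and miR-21a-3p, at distances of 0.47, 0.77 and 0.85 on centred log2(RPM + 1) values, where the median miRNA lay at 4.75. miR-126a-3p, a marker of endothelial cells, had 120231 and 78829 reads in basal replicates 1 and 2, against 9587 and 956 reads in luminal replicates 1 and 2. Its order over the libraries was that of miR-34c-5p. There were 4.72 and 3.02 reads of miR-34c-5p per 1000 reads of miR-126a-3p in basal libraries, and 3.55 and 2.09 in luminal libraries. The highest of these was 2.26 times the lowest, against 105 times for miR-34b-3p and 909 times for miR-34a-5p. miR-126a-3p was picked for its closeness to miR-34c-5p, so these ratios describe that choice and support nothing further. miR-126a-3p had a fold change of 3.08 on the log2 scale (standard error 0.91, edgeR adjusted p = 0.0651), and it passed under 7 of 13 alternatives, DESeq2 among them (0.00686). Without luminal replicate 1 it was 5.53, and without luminal replicate 2 it was 2.28 (edgeR, adjusted p = 0.00107 and 0.258). Both arms of miR-126a were highest in the basal libraries, and their part in the values of miR-34c-5p was not tested. The profile rests on 4 libraries of 2 groups, and closeness describes them only. miR-1247-5p had 298 and 169 reads in basal and 38 and 1 in luminal libraries, and miR-21a-3p, the minor arm of miR-21a, had 412 and 366 in basal and 49 and 3 in luminal libraries.

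**Figure D4:**
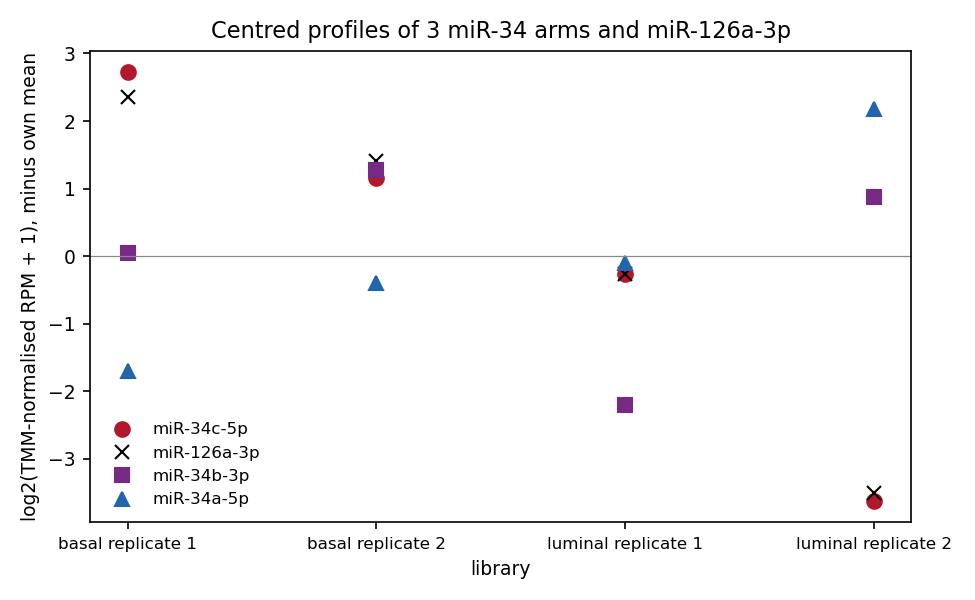
Level of 3 miR-34 arms and of miR-126a-3p in each library as log2(TMM-normalised RPM + 1) minus the mean of the 4 libraries. Circles (miR-34c-5p) and crosses (miR-126a-3p) fall close together in all 4 libraries, whereas miR-34a-5p lies highest in luminal replicate 2.

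Other miRNAs tied to p53, by transcription or by processing, were read for comparison. Of 8 listed, 7 were tested, and 2 passed with higher levels in luminal libraries, where 3.77% of all tested miRNAs passed in that direction. No member passed in the basal direction. Their median log2 fold change was 0.18, with 5 above 0 and 2 below, beside a median of -0.01 over all tested miRNAs. Both calls belong to the smooth muscle pair. miR-145a-5p had 570 and 3962 reads in basal and 5920 and 11920 in luminal replicates 1 and 2 (log2 fold change -3.35, edgeR adjusted p = 0.0232). miR-143-3p had 2251 and 2654 reads in basal and 6468 and 3307 in luminal replicates 1 and 2 (-2.23, edgeR adjusted p = 0.0466). The call of miR-145a-5p ended without basal replicate 1 (adjusted p = 0.157), and under 3 other settings, which were library totals alone (0.107), scaling to the Cali reads (0.323) and a minimum mean of 10 RPM (0.0690). That of miR-143-3p ended without basal replicate 1 (0.337), basal replicate 2 (0.298) or luminal replicate 1 (0.154), and in all under 9 of 13 alternatives, with adjusted p up to 0.954 (scaling to the Cali reads). The most abundant member, miR-16-5p, which restrains the cell cycle, had 23292 ± 7847 RPM for basal and 12478 ± 8726 RPM for luminal libraries (SD, n = 2 each, log2 fold change 0.90, edgeR adjusted p = 0.540). miR-215-5p had no basal read and 7 and 9 luminal reads, and was not tested.

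**Figure D5:**
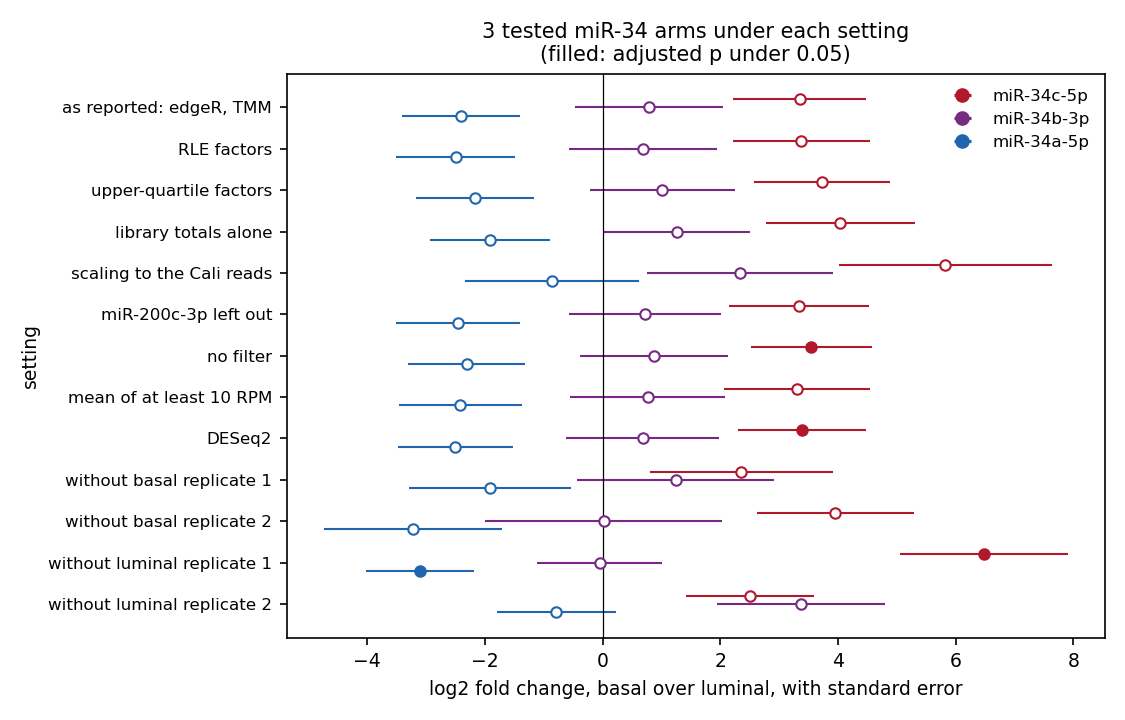
Log2 fold change, basal over luminal, of miR-34c-5p, miR-34b-3p and miR-34a-5p under each setting except the replicate block, with standard errors. Points are filled where the adjusted p was under 0.05. miR-34c-5p stays above 0 (2.36 to 6.48) and miR-34a-5p below 0 (-3.22 to -0.78) under the settings drawn, while miR-34b-3p reaches -0.046 without luminal replicate 1.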

How the data were processed

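Per the file headers, the deposited values are raw read counts, with 1 list of miRNA names for each library. BLAST is named in the title of the table. Its version, the miRNA release, the mismatches allowed and the trimming are not stated in the labels or headers. Names other than mouse miRNAs (3 Cali sequences and a 5' adaptor) were left out of totals and tests. The quasi-likelihood test of edgeR 4.0.16 (R 4.3.3) was run with TMM factors and filterByExpr (minimum of 10 reads, total of 15), which kept 345 of 816 miRNAs. Cell type was the only term. Standard errors are the log2 fold change divided by the square root of F. DESeq2 1.42.0 was an alternative, with other scalings, filters, a replicate block and the removal of each library. The test was checked on simulated data. The text names every arm of the family, the 8 p53-linked miRNAs by their calls and abundance, and the 3 closest profiles (Euclidean distance). The table gives miR-142 without the letter a, and was read under that name. The members and lists were chosen with earlier results of these data known.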

Additional observations from a re-analysis of the deposited data

Results flagged for a closer look

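Reads outside the miRNA measurement were flagged because they are far above 0 in every library. Neither the labels nor the headers say what the Cali sequences are. Together with the 5' adaptor they made up 29.5% of all listed reads in basal replicate 1, 54.0% in basal replicate 2, 62.4% in luminal replicate 1 and 59.5% in luminal replicate 2.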

How the results depend on the processing

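The 4 tested miR-34 arms kept their direction under 50 of 51 runs. Among these, the 12 runs of miR-34c-3p could not reverse, since this arm had no luminal read. miR-34b-3p was at -0.046 without luminal replicate 1, and ran from there to 3.37 without 1 library. With all 4 libraries kept, the number of arms called, 0 as reported, was 1 with scaling to the Cali reads (miR-34c-3p). Under that scaling 0.87% of all tested miRNAs passed. The number was also 1 (miR-34c-5p) with no filter, DESeq2 or the replicate block, where 2.57%, 8.12% and 6.67% of all tested miRNAs passed. It changed as well without luminal replicate 1, but that run leaves a single luminal library, and its calls of arms are not read. Over all miRNAs 15 passed as reported (2 higher in basal, 13 in luminal), against 2 with library totals alone (1 and 1), 3 with scaling to the Cali reads (3 and 0), 21 with no filter, 5 at a minimum mean of 10 RPM, 28 in DESeq2, 23 with the replicate block, and without 1 library from 9 (without basal replicate 1) to 61 (without luminal replicate 1), with 10 without basal replicate 2 and 27 without luminal replicate 2. The log2 ratio of the family sum, 0.51 as reported, was 2.67 with scaling to the Cali reads and ran from -0.053 (without luminal replicate 1) to 1.71 (without luminal replicate 2) without 1 library. Upper-quartile factors, library totals alone and scaling to the Cali reads moved the median of all miRNAs to 0.31, 0.56 and 1.99. Under the last of these miR-34a-5p stood at -0.86. The replicate numbers are shared between groups, but the labels do not say that they pair the libraries (correlation of same-numbered deviations 0.15 over 345 miRNAs), and with the block miR-34c-5p had a log2 fold change of 4.0 (edgeR, adjusted p = 0.0143). Without 1 library a group has a single library, which is assumed to vary like the other group. The cause of these changes was not tested. Few reads limit the family: luminal libraries held 92 and 296 family reads, and 3 arms had none there.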
